A study of Mus musculus with 10 samples.

Results

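The genes described are 10 germline genes, Dazl, Ddx4, Sycp1, Sycp3, Mael, Tex101, Stk31, Asz1, Tdrd1 and Hormad1, in undifferentiated mouse embryonic stem cell (ESC) lines. They were chosen by name as genes that are known to be kept silent by promoter DNA methylation in somatic cells, and each was found as 1 row of a table of 20206 genes. RNA was sequenced from 10 wild-type C57Bl/6 ESC lines, each from a different mother. The 5 LPD lines (1, 4, 6, 20 and 40) came from blastocysts of mothers fed a low protein diet with 9% casein, and the 5 NPD lines (8, 15, 21, 36 and 51) from blastocysts of mothers fed a normal protein diet with 18% casein. The mothers were 7 to 9 weeks old, ate the diet after mating until embryonic day 3.5 and were mated to males of the same strain. All lines were derived on feeder fibroblasts with LIF and knockout serum replacement, and were grown without feeders before the RNA was taken, at low passage. Each line is 1 replicate, and each value is a normalized estimated count for the gene total. DNA methylation was not analysed here, so whether the promoters were methylated in these lines cannot be said.

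Germ cells use a set of proteins that most somatic cells do not make. In somatic cells of the mouse the promoters of many of these genes are rich in CpG and gain DNA methylation around implantation. In ESCs a variant Polycomb complex, PRC1.6, also holds part of this set down, and its subunits MGA with MAX and E2F6 bind DNA at E-box and E2F motifs. Dazl is an RNA-binding protein that controls translation in germ cells. Ddx4 (the RNA helicase Vasa), Mael, Asz1, Tdrd1 and Stk31 belong to or are linked with the germ granules, in which PIWI-interacting RNAs (piRNAs) that silence transposons are made. Sycp1 and Sycp3 build the synaptonemal complex, Hormad1 sits on the axes of meiotic chromosomes, and Tex101 is a glycoprotein of the germ cell surface.

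The promoters of all 10 genes were examined in RefSeq windows on GRCm38.p6, from 250 bases before to 50 bases after the start site. The E-box CACGTG, which reads the same on both strands, occurred in 7 of the 10 windows, in Ddx4, Sycp1, Sycp3, Mael, Stk31, Tdrd1 and Hormad1. Among the 13715 genes of the table with such a window 9.14% held it. Sycp3 and Hormad1 each held 2, and 0.933% of all windows held at least that many. The E2F-type motif GCGGGAA, searched on both strands, occurred in Ddx4, Sycp3 and Hormad1, against 7.37% of all windows, and no match of it overlapped an E-box. Those 3 genes held both motifs, against 0.715% of all windows. Among 24 other meiotic prophase genes with a window, 16.7% held the E-box, 33.3% the E2F-type motif and 12.5% both. Among 17 other piRNA and germ granule genes, 29.4% held the E-box, 5.88% the E2F-type motif and 0% both. Among 18 further genes known for silencing by promoter methylation, 27.8% held the E-box, 22.2% the E2F-type motif and 5.56% both. Dazl, Asz1 and Tex101 held neither in these windows, and for Tex101 the RefSeq start lies 4625 bases from the gene start in the GENCODE annotation, so its window may not be the promoter in use. Each match is printed with its neighbouring bases. Motifs are in capitals, and each stretch is written on the strand of its gene.
Ddx4, E-box, chr13:112652322-112652351, - strand: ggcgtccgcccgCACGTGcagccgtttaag
Sycp1, E-box, chr3:102936177-102936206, - strand: tagagaacccggCACGTGggaagggaaatc
Sycp3, first E-box, chr10:88459511-88459540, + strand: gccgttggctccCACGTGagaacgggcatg
Sycp3, second E-box, chr10:88459532-88459561, + strand: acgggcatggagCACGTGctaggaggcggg
Mael, E-box, chr1:166238950-166238979, - strand: taccaggcctacCACGTGacaatccccgcc
Stk31, E-box, chr6:49395472-49395501, + strand: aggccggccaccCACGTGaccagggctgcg
Tdrd1, E-box, chr19:56826186-56826215, + strand: tggggctgcgcgCACGTGggagtaaactgc
Hormad1, first E-box, chr3:95559608-95559637, + strand: caaagggtgcgcCACGTGccagtgacagtt
Hormad1, second E-box, chr3:95559645-95559674, + strand: atgcgcactgcgCACGTGctgaccggagcg
Ddx4, E2F-type motif, chr13:112652429-112652457, - strand: ccgtccatgggGCGGGAAgtcgcgcgccg
Sycp3, E2F-type motif, chr10:88459429-88459457, + strand: aggaaggaacaGCGGGAAagtgctgcttc
Hormad1, E2F-type motif, chr3:95559571-95559599, + strand: cgcagcttttgGCGGGAAtagtggtctgg

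In Hormad1 the E2F-type motif began 95 bases before the start site and the E-boxes 57 and 20 bases before it. In Sycp3 the E2F-type motif began 147 bases before the start site and the E-boxes 64 and 43 bases before it. In Ddx4 they began 136 and 29 bases before the RefSeq start, which lies 165 bases inside the gene as GENCODE draws it. The farthest E-box was that of Mael, 223 bases before the start, and the nearest that of Tdrd1, 11 bases before it. The windows held between 15 CpG dinucleotides in Sycp3 and 38 in Ddx4, with a median of 22.5 against 18 over all windows and 21 over those of genes tested. Ddx4 lay at the 92.3rd percentile of all windows for CpG, Dazl and Stk31 at the 77.1st and Sycp3 at the 41.1st. A motif match is a description of letters and was not tested for binding.

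**Figure D1:**
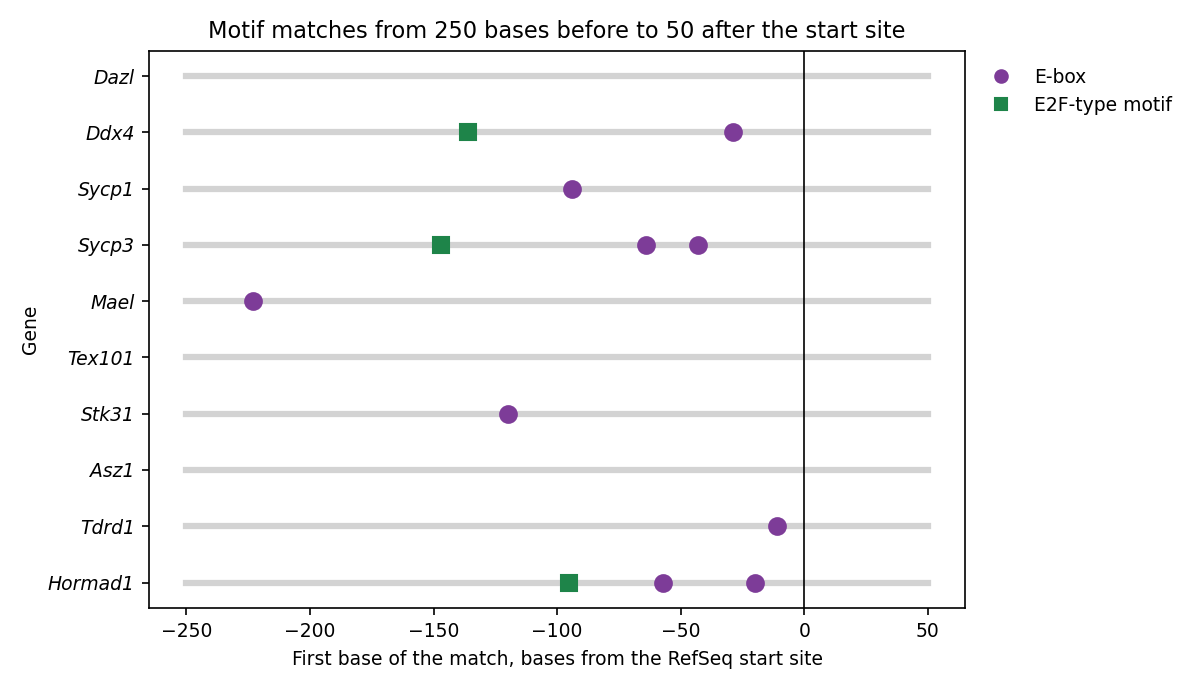
Positions of E-box matches (circles) and E2F-type matches (squares) in the promoter windows of the 10 genes, with the first base of each match in bases from the RefSeq start site. The 7 genes with an E-box and the 3 with both motifs can be seen, and Dazl, Tex101 and Asz1 have empty windows.

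The labels call all 10 lines male, and 2 lines went against this. The Y-linked RNA helicase gene Ddx3y had 7.70 in NPD line 15 and 174 in LPD line 4, where the other 8 lines had 1110 to 1493. Another Y-linked gene, Eif2s3y, had 140 in LPD line 4 and 7.72 in NPD line 15, against 1409 to 1744 in the others. X-linked genes (334 of them) had a median log2 ratio to the median line of 0.49 in NPD line 15 and of 0.00 in LPD line 4. Xist was not analysed here. The diet differences of the germline genes, and the counts and medians of each gene list, are therefore given with and without these lines. The lines also differed in depth. The NPD lines held 20415145 to 23170457 read equivalents (the total divided by what 1 read was worth), while LPD lines 1, 4, 6, 20 and 40 held 21900933, 5848195, 12350304, 24148878 and 11246277. Low genes were thus measured least precisely in LPD line 4, where 1 read was worth 2.88 units of the value. The ESC label held in every line, since Pou5f1 (Oct4) had 18250 to 30420, Sox2 7481 to 10969 and Nanog 5141 to 11571.

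RNA of all 10 germline genes was listed above 0 in all 10 lines, so the genes were not uniformly silent. To compare genes with one another, the mean value was divided by the length of the longest transcript in kilobases (kb). Dazl then stood first with 374 per kb, followed by Hormad1 with 368, Sycp3 with 291, Mael with 287, Ddx4 with 202, Sycp1 with 102 and Stk31 with 76.4. These 7 genes lay above the median of 17824 protein-coding genes, 54.0 per kb, with Dazl at the 82.2nd and Stk31 at the 55.0th percentile. Tex101 with 10.7 per kb, Tdrd1 with 7.19 and Asz1 with 6.59 lay between the 28.3rd and the 32.3rd percentile. The ranges of neighbouring genes over the 10 lines overlapped at every step but 1, that from Stk31 (39.6 to 90.8 per kb) to Tex101 (3.41 to 18.9 per kb). Within a line, Mael was above Ddx4 and Ddx4 above Sycp1 in 10 of 10 lines, whereas Dazl was above Hormad1 in 4 lines and Sycp3 above Mael in 5.

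**Figure D2:**
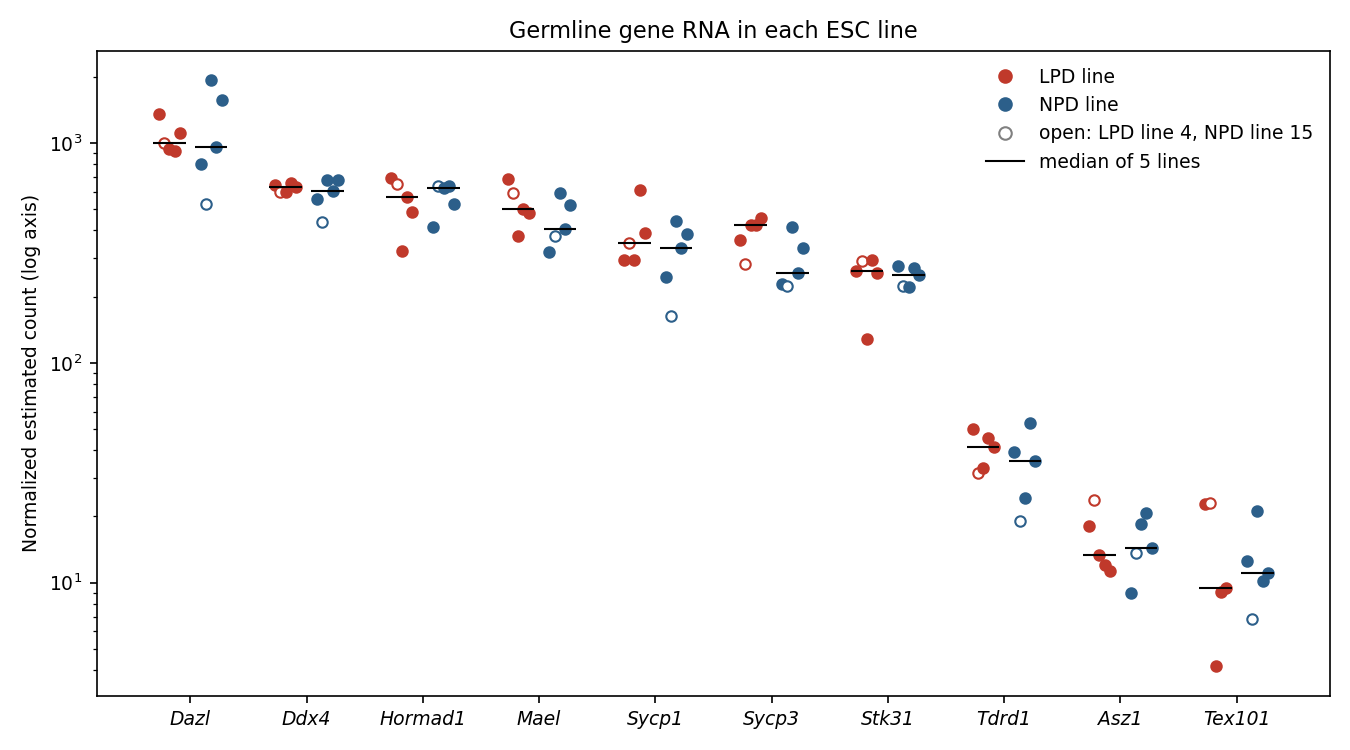
Normalized estimated count of each germline gene in each line (log axis; LPD lines red, NPD lines blue, open points for LPD line 4 and NPD line 15, bars for the median of 5 lines). The 7 genes on the left have values of 128 or above in every line, Tdrd1, Asz1 and Tex101 lie below 54, and the diets overlap in every gene.

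Dazl (chromosome 17, 50279395 to 50293636), the translational regulator, had values of 1354, 1001, 942, 918 and 1109 in LPD lines 1, 4, 6, 20 and 40. In NPD lines 8, 15, 21, 36 and 51 it had 804, 528, 1933, 955 and 1574. The NPD lines held both the lowest and the highest values, 3.66-fold apart, and all LPD lines lay between them. Mean LPD and NPD values were 1065 ± 178 (SD, n = 5) and 1159 ± 578 (SD, n = 5), with a log2 difference, LPD minus NPD, of 0.01 (95% interval -0.61 to 0.64, exact permutation test, two-sided, P = 0.968). Without LPD line 4 and NPD line 15 the difference was -0.21.

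Of the germ granule genes among these 10, Ddx4 (chromosome 13, 112598333 to 112652475) was the steadiest. It had 642, 600, 600, 654 and 629 in the LPD lines, in the same order, and 553, 438, 678, 605 and 680 in the NPD lines. NPD line 15 was lowest and the other 9 lines lay between 553 and 680, and the log2 difference was 0.10 (95% interval -0.17 to 0.36). Mael (chromosome 1, 166201201 to 166238747), a protein needed for transposon silencing, had 689, 592, 376, 499 and 479 in LPD and 320, 377, 594, 407 and 523 in NPD. LPD line 1 was highest and NPD line 8 lowest, and the log2 difference was 0.25 (95% interval -0.16 to 0.67), or 0.14 without NPD line 8. Stk31 (chromosome 6, 49395604 to 49469501), a Tudor domain protein, had 260, 291, 128, 294 and 256 in LPD and 275, 224, 222, 271 and 251 in NPD. LPD line 6 stood alone at 0.492 of the median of the other 9 lines, which all lay between 222 and 294. Its log2 difference was -0.07 (95% interval -0.53 to 0.39), and 0.15 without LPD line 6.

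The Tudor protein gene Tdrd1 (chromosome 19, 56826209 to 56870012), a partner of PIWI proteins, was low, with 49.8, 31.7, 33.3, 45.7 and 41.2 in LPD and 39.1, 19.0, 24.2, 53.1 and 35.8 in NPD. All LPD lines lay between NPD lines 21 and 36, and the log2 difference was 0.30 (95% interval -0.36 to 0.95), or 0.11 without NPD line 15. Asz1 (chromosome 6, 18050964 to 18109061), a scaffold protein of germ granules at mitochondria, had 18.1, 23.6, 13.3, 12.0 and 11.3 in LPD and 8.95, 13.6, 18.4, 20.8 and 14.4 in NPD. These values stand for 7.18 to 28.6 read equivalents a line, and the log2 difference was 0.04 (95% interval -0.72 to 0.80).

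Of the meiotic chromosome genes, Sycp3 (chromosome 10, 88459569 to 88473236), a part of the lateral elements of the synaptonemal complex, had 361, 282, 422, 422 and 456 in LPD and 229, 223, 415, 256 and 332 in NPD. LPD lines 6, 20 and 40 lay above every NPD line, while NPD line 21 lay above LPD lines 1 and 4. The means were 389 ± 68.6 (SD, n = 5) and 291 ± 82.0 (SD, n = 5), a log2 difference of 0.44 (95% interval 0.02 to 0.85, limma, adjusted P = 0.982). The exact permutation test gave P = 0.0714 (two-sided, 5 lines against 5), and over the alternatives the unadjusted P of limma ranged from 0.00666 to 0.126. Without LPD line 4 and NPD line 15 the difference was 0.46. An exon of Sycp3 overlaps Chpt1 on the other strand, and since the strand of the libraries is not given in the sources used here, reads of the overlap cannot be told apart. Sycp1 (chromosome 3, 102818499 to 102936100), the transverse filament protein, had 294, 351, 293, 609 and 388 in LPD and 245, 162, 443, 333 and 386 in NPD. LPD line 20 was highest and NPD line 15 lowest, 3.75-fold apart, and the log2 difference was 0.33 (95% interval -0.26 to 0.92), or 0.14 without LPD line 4 and NPD line 15.

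Hormad1 (chromosome 3, 95559677 to 95587671), whose product marks unsynapsed chromosome axes, had 690, 652, 323, 569 and 488 in LPD and 416, 635, 627, 637 and 526 in NPD. LPD line 6 was lowest, and NPD line 15, the lowest line for 5 other germline genes, was not low here. The log2 difference was -0.09 (95% interval -0.52 to 0.34), and 0.08 without LPD line 6. Tex101 (chromosome 7, 24668007 to 24676675) had 22.8, 23.0, 4.16, 9.10 and 9.48 in LPD and 12.5, 6.83, 21.1, 10.2 and 11.0 in NPD. LPD lines 1 and 4 were the highest, but the value in LPD line 4 rests on 8.00 read equivalents and that in LPD line 6 on 3.00. Its interval, from -1.06 to 1.06, was the widest of the 10 genes, so that a 2-fold difference in either direction was within it.

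The comparison between the diets asks whether the protein in the mother's diet before implantation left a mark on these genes in the ESC lines. Of the 10 genes, 7 had a positive and 3 a negative log2 difference. Their median was 0.07, against 0.00 over all 14354 genes tested. Of all genes tested 7247 were positive and 7107 negative. Without LPD line 4 and NPD line 15 these counts were 7220 and 7077 of 14297. That split is the background for the gene lists below, and no count by sign was tested. None of the 10 genes was under an adjusted P of 0.1 (limma, Benjamini-Hochberg), as 0 genes (0%) were over the whole table. At an unadjusted P under 0.05, 1 germline gene (Sycp3) was higher in LPD, where 2.84% of all genes tested were, and 0 were lower, where 2.18% were. The groups did not overlap in 0 of the 10 genes, against 1.02% of all genes tested. Without LPD line 4 and NPD line 15, 5 genes were positive and 5 negative, the median was -0.06, Sycp3 alone was again under 0.05 and the count under an adjusted P of 0.1 was 0. Beside the values given above for Dazl, Sycp3 and Sycp1, the log2 differences in those 8 lines were 0.00960 for Ddx4, 0.15 for Mael, 0.19 for Tdrd1, -0.41 for Tex101, -0.18 for Stk31, -0.14 for Asz1 and -0.12 for Hormad1.

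**Figure D3:**
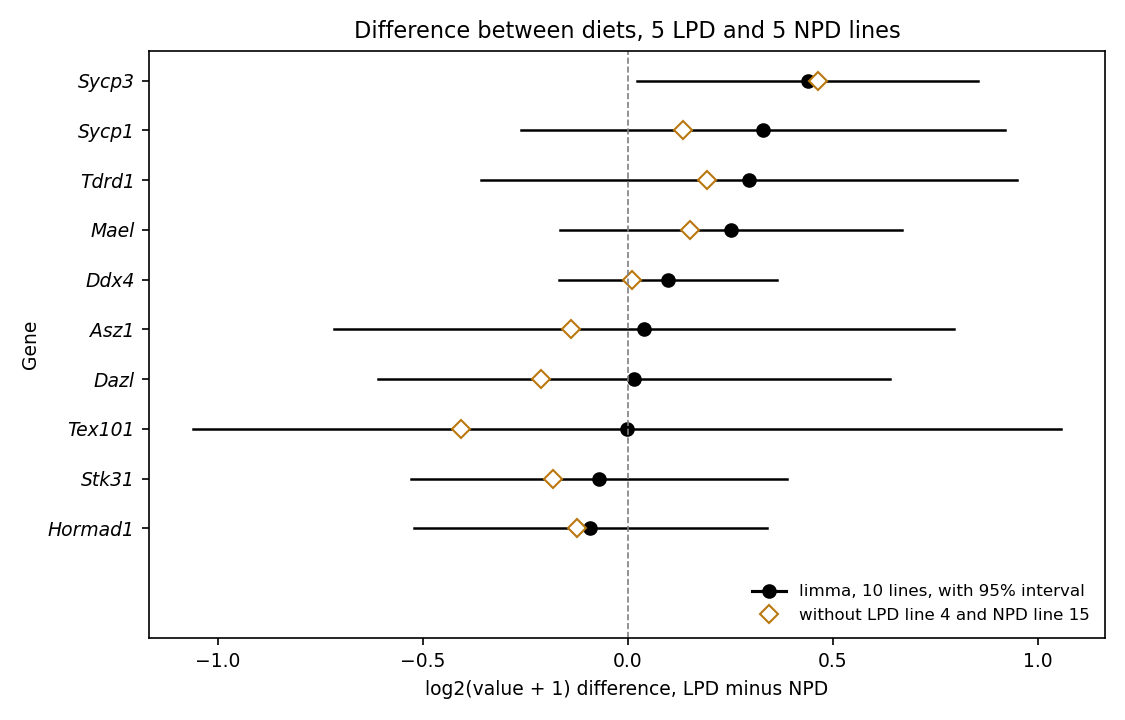
Difference in log2(value + 1) between LPD and NPD lines for each germline gene from limma (points, with 95% intervals as bars) and the same without LPD line 4 and NPD line 15 (diamonds). The interval of Sycp3, 0.02 to 0.85, alone among the 10 does not include 0, before adjustment over all genes.

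The germline genes varied between lines of the same diet. The SD between lines within a diet, on the log2 scale, had a median of 0.40 for the germline genes against 0.27 over all genes tested, and was above that of the median gene in 9 of 10. Without LPD line 4 and NPD line 15 these medians were 0.39 and 0.26, with 9 of 10 genes above. Of the 7 germline genes with a mean of at least 100, 6 were above the median of all genes with such a mean, 0.21. Relative to each gene's own median over the 10 lines, NPD line 15 was lowest with a median of -0.56 on the log2 scale over the 10 genes, followed by NPD line 8 with -0.38 and LPD line 6 with -0.20. LPD line 1 with 0.29 and NPD line 21 with 0.27 were highest. NPD line 15 had the lowest value of all lines in Dazl, Ddx4, Sycp1, Sycp3 and Tdrd1, LPD line 6 in Tex101, Stk31 and Hormad1, and NPD line 8 in Mael and Asz1. Thus 3 lines, 2 of them NPD, held the lowest value of each of the 10 genes. NPD line 15 and LPD line 6 were below the gene's median in 9 genes each, 8 of them shared, and NPD line 8 was below it in 7. Sycp3 in LPD line 6 was 0.28 above its median and Hormad1 in NPD line 15 was 0.09 above its own.

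**Figure D4:**
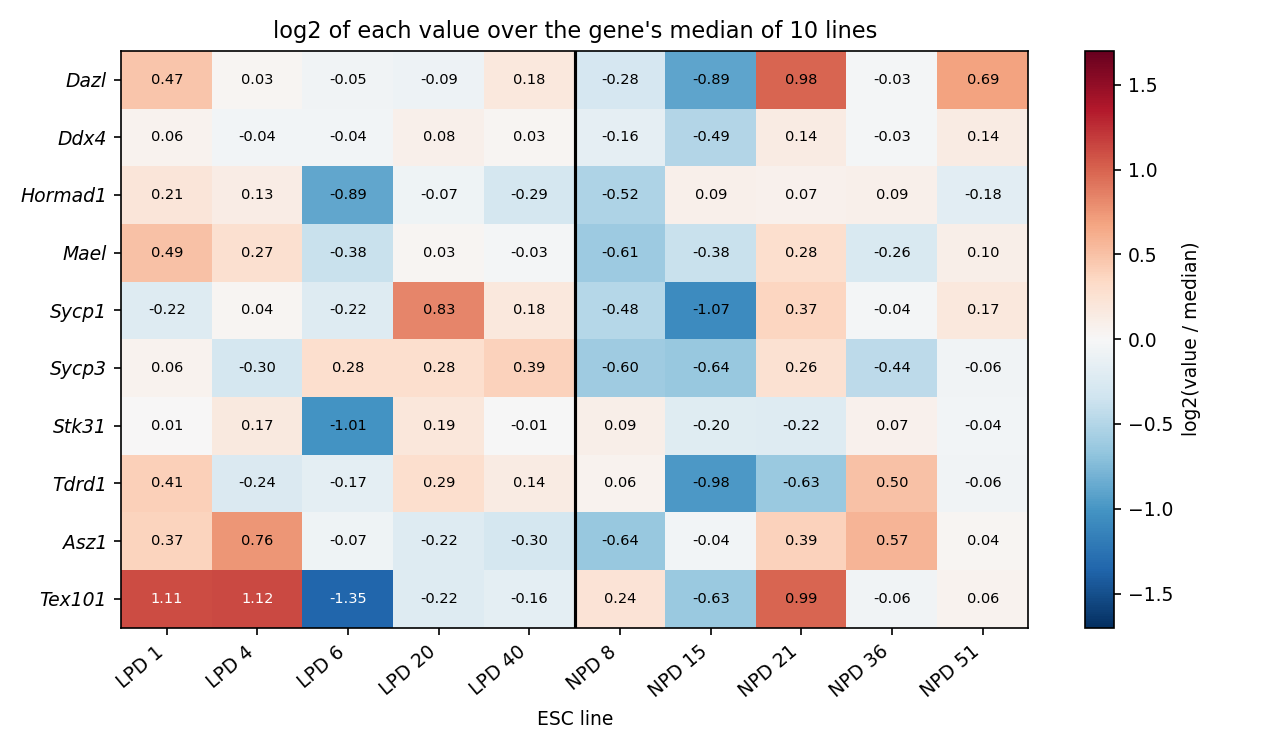
The log2 ratio of each value to the gene's median over the 10 lines, with genes in rows and lines in columns (LPD left of the bar, NPD right of it). NPD line 15 is low in Dazl, Ddx4, Sycp1, Sycp3 and Tdrd1, and LPD line 6 in Tex101, Stk31 and Hormad1.

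Each pair of germline genes was compared across the 10 lines. Of 45 pairs, 39 had a positive Pearson r, with a median of 0.35, which was 0.35 also without NPD line 15. Pairs of other genes were not compared in this way, and the 45 pairs share 10 genes, so they are not independent. By Pearson r over all 10 lines, Dazl and Ddx4 went together most closely. They had r = 0.88 (permutation test, P = 0.00030, adjusted over the pairs P = 0.0135) and Spearman rho = 0.79 (permutation test, P = 0.00912, adjusted P = 0.142). Without the 2 lines farthest from the median of Dazl, NPD lines 21 and 15, r was 0.79, and without NPD line 15 alone it was 0.82. Ddx4 and Sycp1 had r = 0.86 (permutation test, P = 0.00136, adjusted P = 0.0306) and rho = 0.82 (permutation test, P = 0.00594, adjusted P = 0.142). Without NPD lines 15 and 8, the farthest for Ddx4, this r was 0.55, so that the relation rests in part on those lines. These were the 2 pairs with an adjusted P under 0.1 for r, and 0 pairs were under it for both r and rho. Sycp3 and Stk31 had the lowest r, -0.30. With 5 lines in each diet, r was not computed within a diet.

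The lines low in germline genes also stood apart in markers of other cell types. Fibroblast markers, which the feeder layer could bring, had the highest sums in NPD line 15 (6035), LPD line 6 (3752) and NPD line 8 (2434), against 807 to 1721 in the other 7 lines. Of the 10 fibroblast markers, 7 were highest in NPD line 15. The most abundant, the collagen gene Col1a1, had 2709 there, 1704 in LPD line 6, 1016 in NPD line 8 and 131 to 534 elsewhere. Not every marker followed the sums. LPD lines 6, 20 and 40 were each highest for 1 marker, NPD line 8 for 0, and 1 marker was lowest in LPD line 6. Twist1 had 485 in LPD line 20, 285 in LPD line 6, 146 in NPD line 15 and 102 in NPD line 8. Lum, a proteoglycan of connective tissue, had 111 in NPD line 15 and was at or near 0 in the others, and Dcn was at 0 in 4 lines. Primitive endoderm markers had their lowest sums in the same 3 lines, 1557 in NPD line 15, 2336 in LPD line 6 and 3664 in NPD line 8, against 5940 to 14179 elsewhere. All 7 of them were lowest in NPD line 15, where Foxa2 was at 0, and their most abundant gene was Col4a1, a basement membrane collagen. The ESC markers did not follow, with sums of 103111 in NPD line 15, 92996 in LPD line 6 and 87561 in NPD line 8 and 85410 to 113331 in the others. The part of these cells in the germline gene values was not tested. In bulk RNA, fewer cells that express a gene and less RNA per cell cannot be told apart.

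**Figure D5:**
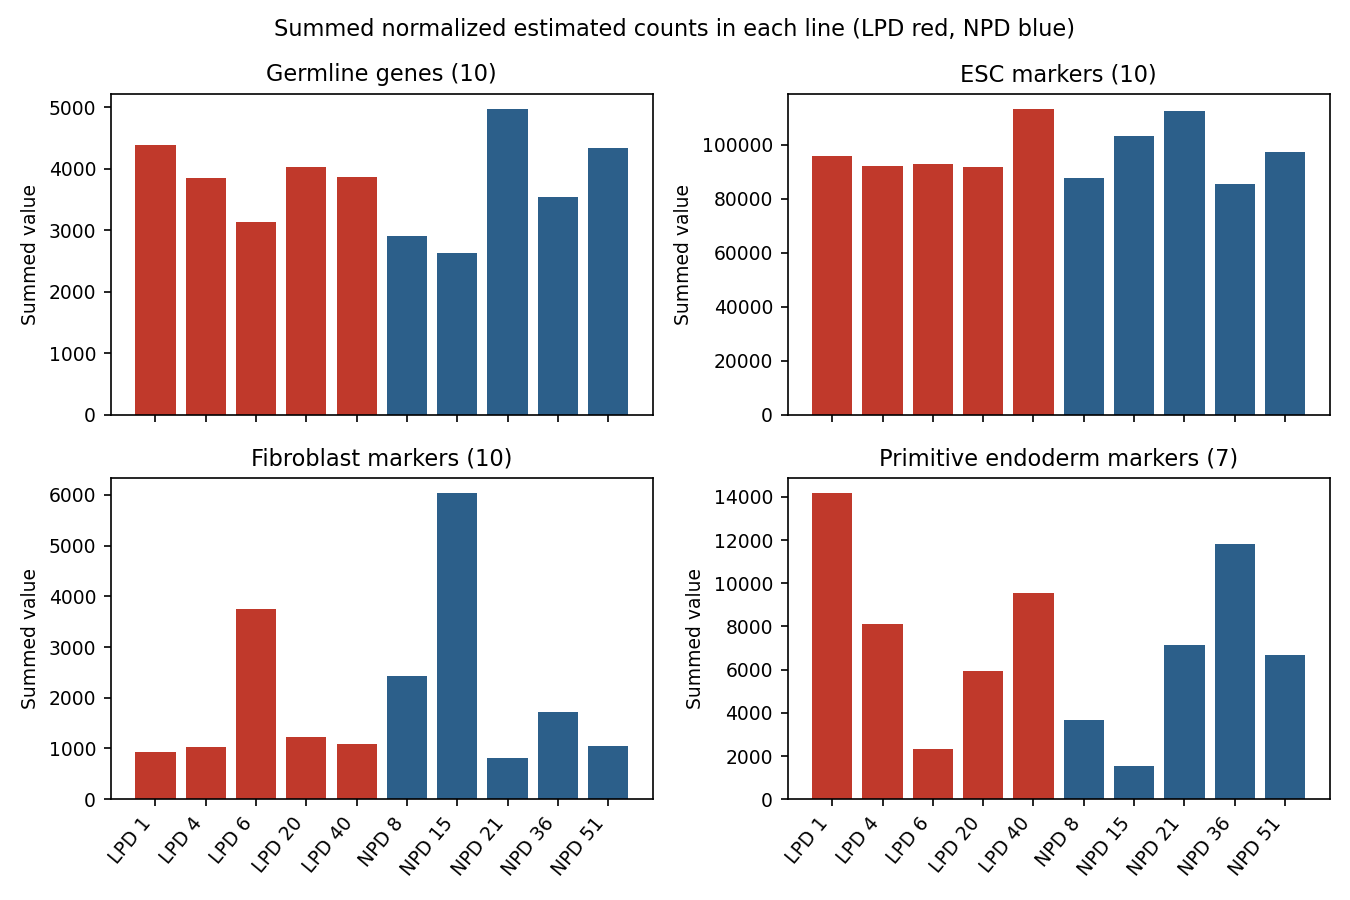
Summed normalized estimated counts per line of the 10 germline genes, 10 ESC markers, 10 fibroblast markers and 7 primitive endoderm markers (LPD red, NPD blue). NPD line 15, NPD line 8 and LPD line 6 have the lowest germline and primitive endoderm sums and the highest fibroblast sums.

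Among 14344 other genes tested, those whose pattern over the 10 lines was most like the mean z score of the germline genes were Gm7061 (r = 0.95), Gm8334 (r = 0.94), Bmper (r = 0.94) and Lama1 (r = 0.93). Lama1, a laminin chain of the basement membrane, had 518 in NPD line 15, 1068 in LPD line 6 and 1596 in NPD line 8, and 2915 to 7178 in the others. Without NPD line 15 these 4 had r of 0.89, 0.90, 0.89 and 0.87 and ranked 34, 19, 29 and 51, and the first 5 were Rpa2 (r = 0.98), Dctpp1, Agpat5, Strap and Sephs2. The values of Rpa2, a subunit of the single-strand DNA binding complex, spanned 1612 in LPD line 6 to 2122 in LPD line 1. Depth and cell makeup differed between the lines, as given above, and these r are a description.

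Other genes of the piRNA pathway and germ granule were also present. Of 24 such genes 20 were tested, with 13 higher and 7 lower in LPD and a median log2 difference of 0.11. None was under an adjusted P of 0.1. At an unadjusted P under 0.05 the 2 genes Tex15 and Tex19.1 were higher, where 2.84% of all genes tested were, and 0 were lower, where 2.18% were. In the lines other than LPD line 4 and NPD line 15, 8 of 19 were higher, the median was -0.01 and Tex15 alone was under 0.05. Tex15 (chromosome 8, 33516738 to 33585582), which acts in piRNA-directed transposon methylation, had 621, 627, 522, 552 and 393 in LPD lines 1, 4, 6, 20 and 40 and 360, 356, 419, 353 and 324 in NPD lines 8, 15, 21, 36 and 51. Of the LPD lines 4 lay above every NPD line, and LPD line 40 lay below NPD line 21 only. The log2 difference was 0.57 (standard error 0.14, limma, adjusted P = 0.440, 0.0509 without LPD line 40 and 0.252 to 1.00 in the other alternatives), and 0.51 without LPD line 4 and NPD line 15 (exact permutation test on all lines, two-sided, P = 0.0159). Tex19.1, a gene of germ cells, placenta and ESCs, had 2196 and 2186 in LPD lines 1 and 4, and 1159 to 1750 in the other lines. Its log2 difference was 0.38 (standard error 0.16, limma, adjusted P = 0.953), and its unadjusted P was 0.05 or above in 9 of 22 alternatives, 5 of them with a single line left out (LPD lines 1, 4 and 20 and NPD lines 8 and 15). Rnf17, a Tudor protein gene, was the most abundant, with means of 1935 ± 181 (SD, n = 5) and 1823 ± 294 (SD, n = 5) in LPD and NPD. Tdrd7, with a log2 difference of -0.41 (standard error 0.34), or -0.20 without LPD line 20, had the smallest P of the lower genes.

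Of 32 other genes of meiotic prophase 26 were tested, with 18 higher, 8 lower and a median of 0.07, and 0 were under an unadjusted P of 0.05. The split was 12 higher and 14 lower, with a median of -0.04, without LPD line 4 and NPD line 15. Stra8, which starts the meiotic programme, was the most abundant and had 680 in NPD line 15 and 1431 to 2717 in the other 9 lines, with a log2 difference of 0.24 (standard error 0.31), or -0.11 without NPD line 15. Ccnb1ip1 had the smallest P of the higher genes, with 0.59 (standard error 0.32), or 0.36 without NPD line 8, and Six6os1 of the lower, with -0.23 (standard error 0.12). Of 19 further genes known for silencing by promoter methylation 18 were tested, 12 higher and 6 lower, with a median of 0.12 and 0 under an unadjusted P of 0.05. Of 16 tested without these lines, 7 were higher, with a median of -0.05. The most abundant of them was Dnmt3l, with 3092 in LPD line 6 and 5706 to 9226 elsewhere. Fmr1nb at 0.21 (standard error 0.14, 0.13 without LPD line 40) and D1Pas1 at -0.22 (standard error 0.26, -0.05 without LPD line 6) had the smallest P in each direction. Markers of later spermatid stages were low where they had a value. Of 8 such markers 3 were in the table, Acrv1, Odf1 and Spaca1, and their sum was 1.67 to 15.6 in any line, too low to be tested.

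Genes of repressor complexes known to act on germline genes were expressed in every line. Of 15 genes of PRC1.6 and its partners 6 were higher and 9 lower in LPD, with a median of -0.03 and 0 under an unadjusted P of 0.05. The split was 5 higher and 10 lower, with a median of -0.02, without LPD line 4 and NPD line 15. E2f6 had 452 to 840, Pcgf6 1059 to 1417, Mga 1906 to 3511 and L3mbtl2 1918 to 2934, with log2 differences of 0.04, 0.05, -0.03 and -0.09, each within the spread between lines. Without LPD line 20 those of E2f6 and Pcgf6 were -0.08 and -0.00448, without LPD line 40 that of Mga was 0.08, and without LPD line 1 that of L3mbtl2 was -0.0127. Hdac1, a histone deacetylase, was the most abundant of the 15, and Yaf2 at 0.26 and Tfdp1 at -0.18 had the smallest P in each direction. Of 8 repressors that act through histone H3 lysine 9 methylation 3 were higher and 5 lower, with a median of -0.13. When the same 2 lines were left out, 1 was higher and 7 lower, with a median of -0.12, and Ehmt1 alone was under an unadjusted P of 0.05. In all lines, Ehmt1 and Ehmt2, which form the G9a-GLP methyltransferase, were both lower at an unadjusted P under 0.05, where 2.18% of all genes tested were. Both were above an adjusted P of 0.1. Ehmt1 had means of 1412 ± 124 (SD, n = 5) for LPD and 1665 ± 187 (SD, n = 5) for NPD (log2 difference -0.23, standard error 0.10, limma, adjusted P = 0.956). Ehmt2 had 2163 ± 139 (SD, n = 5) and 2487 ± 242 (SD, n = 5) (log2 difference -0.20, standard error 0.09, limma, adjusted P = 0.982). The unadjusted P of Ehmt1 was 0.05 or above in 8 of 22 alternatives, 5 of them with a single line left out (LPD lines 6 and 40 and NPD lines 8, 15 and 36). That of Ehmt2 was so in 10, 7 of them with a single line left out (all but LPD line 20 and NPD lines 21 and 51). Setdb1, another H3 lysine 9 methyltransferase gene, had a log2 difference of -0.20 (standard error 0.11), or -0.13 without NPD line 8, Resf1 had 0.19 (standard error 0.16), or 0.08 without LPD line 20, and Trim28 was the most abundant, with 18073 to 27388.

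Of 11 genes of DNA methylation and demethylation 3 were higher and 8 lower in LPD, with a median of -0.10. Leaving out LPD line 4 and NPD line 15 gave 2 higher and 9 lower, with a median of -0.08, and Tet2 alone was under an unadjusted P of 0.05. The smallest P of the higher genes was that of Tdg, a DNA glycosylase gene, at 0.04 (standard error 0.08), or 0.00263 without LPD line 20. Only Tet2, which oxidises methylcytosine, had an unadjusted P under 0.05 among them, lower in LPD, where 2.18% of all genes tested were. Its means were 1571 ± 86.4 (SD, n = 5) for LPD and 1799 ± 173 (SD, n = 5) for NPD (log2 difference -0.19, standard error 0.09, limma, adjusted P = 0.986). Its unadjusted P was 0.05 or above in 9 of 22 alternatives, 7 of them with a single line left out (all but LPD line 6 and NPD lines 15 and 51), and reached 0.112. The maintenance methyltransferase gene Dnmt1 had 5470 to 7171 and its partner Uhrf1, the most abundant, 8225 to 10440, with log2 differences of -0.13 and -0.04, the latter 0.00159 without LPD line 6. The de novo methyltransferase gene Dnmt3a varied 5.25-fold between lines, from 1343 in LPD line 6 to 7049 in LPD line 20. Its log2 difference was -0.26 (95% interval -1.06 to 0.54), or 0.08 without LPD line 6. Without LPD line 20 it was -0.52, and without LPD line 4 and NPD line 15 it was -0.50. Dnmt3b had 2047 to 3589 and Tet1 4488 to 11538, each with a log2 difference of -0.21, which without LPD line 40 was -0.12 and -0.04. That of Dnmt3b was -0.32 without NPD line 21, and that of Tet1 was -0.37 without LPD line 4. LPD line 6, the lowest for Dnmt3a and Dnmt3l, was also the lowest for Tex101, Stk31 and Hormad1. In NPD line 15, lowest for 5 germline genes, Dnmt3a had 2655 and Dnmt3b 3513. No level of a methyltransferase gene was tested against the germline genes across lines.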

How the data were processed

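RNA sequencing of 10 ESC lines was used, 5 LPD and 5 NPD, with each line as 1 replicate and 0 columns of the table left unmapped. According to the paper and the submitters' processing notes, the authors trimmed adaptors with cutadapt, quantified transcripts of GRCm38 with Salmon and tested transcripts with sleuth 0.30.0. The authors deposited 1 normalized signal for each gene and line, which is an estimated count divided by a size factor of DESeq2 going by the table's name. How transcripts were summed to genes is not given in the sources used here. Values are not whole reads, so no count model was used. Size factors set the lines to a common scale, so a value is relative to the other RNA of its line.

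Gene identifiers were matched to GENCODE M21 (19891 of 20206 genes), and 164 of 176 listed symbols were found. Values were taken as log2(value + 1), which understates differences of low genes. Genes with a mean of 10 or more (14354) entered limma 3.58.1 under R 4.3.3 (eBayes with a mean-variance trend) and adjusted over all of them by the Benjamini-Hochberg method, at an adjusted P of 0.1 and an unadjusted P of 0.05. This takes the place of the transcript test, since the table has no transcripts. Single genes were tested by exact permutation over 252 assignments, with 0.00794 as the smallest P possible, and pairs of genes by 100000 permutations. Depth was estimated from the value of 1 read in the low values of 4269 genes with 1 annotated transcript, of which 91.9% to 99.7% were whole multiples within a tolerance of 0.15. All 10 germline genes passed the filter, and all had a RefSeq window. The script was tested on simulated data. The other steps ran in Python 3.11.15 (scipy 1.17.1, pandas 2.3.3, numpy 2.4.6 and, for figures, matplotlib 3.10.9).

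The germline genes and the gene lists were chosen with earlier results of these data known. The genes named are every germline gene, the Y-linked, pluripotency and named regulator genes, and for each other list the most abundant gene and the tested gene with the smallest P in each direction, besides the 5 genes most alike in pattern, of which 1 is not reported here. Other genes of a list named for a value or an unadjusted P (Tex19.1, Ehmt2, Prdm14, Prdm1, Dppa3, Lum, Dcn, Acrv1 and Odf1) were chosen after their values were seen. As alternatives, pseudocounts of 0.1, 0.5 and 10 were tried, besides no filter, a mean of at least 100, quantile normalization, the same total for all lines, limma with array weights, with robust eBayes or with no trend, depth as a covariate, LPD line 4 and NPD line 15 left out together, and each line left out in turn.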

Additional observations from a re-analysis of the deposited data

Results flagged for a closer look

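Of the 20 groups of 5 lines examined for a line far from the others, 1 was found, where chance gives about 1 in 20. Stk31 in LPD line 6 was 128, against 256 to 294 in the other LPD lines, and the gap to the nearest of them was 0.832 of the whole range of the 5 log2 values (critical value 0.71). The log2 difference of Stk31 between the diets was -0.07 with this line and 0.15 without it.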

How the results depend on the processing

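A mean of at least 100 left 7 germline genes to test, and every other alternative all 10. Over the 22 alternatives 0 of the germline genes tested passed an adjusted P of 0.1. Their median log2 difference ranged from -0.06 to 0.23, and with single lines left out from 0.00 to 0.23. Sycp3 stayed positive throughout (0.32 to 0.58), but the count at an unadjusted P under 0.05 was 0 without a trend, 0 with array weights and 0 to 1 with each line left out. It was lost without LPD lines 1, 6, 20 and 40 and NPD lines 8, 15 and 36. Sycp1, Mael and Tdrd1 also kept their sign, with single lines left out from 0.11 to 0.47, 0.14 to 0.37 and 0.11 to 0.47. Over all genes, 1 was under an adjusted P of 0.1 with array weights, and 0 to 40 with each line left out, the 40 without LPD line 40. Differences near 0 changed sign. Dazl was -0.0194 at the same total, -0.11 with array weights and -0.21 without LPD line 4 and NPD line 15. Tex101 was 0.0384 with a pseudocount of 10, 0.11 after quantile normalization and 0.13 with array weights. Asz1 was -0.12 with depth as a covariate and -0.14 without LPD line 4 and NPD line 15. With single lines left out, Dazl ranged from -0.23 to 0.24, Ddx4 from -0.00483 to 0.15, Tex101 from -0.24 to 0.32, Stk31 from -0.15 to 0.15, Asz1 from -0.12 to 0.16 and Hormad1 from -0.20 to 0.0837. The cause of these changes was not tested beyond the lines left out. No paired analysis was possible because the line numbers of the diets are not shared. Asz1, Tex101 and Tdrd1 rest on few reads, with 7.18, 3.00 and 11.0 read equivalents in the lowest line.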

Other observations

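Of 9 markers of primordial germ cells, all tested, 1 was higher and 8 lower in LPD, with a median log2 difference of -0.25. The stem cell factor receptor gene Kit had means of 1551 ± 253 (SD, n = 5) for LPD and 2018 ± 357 (SD, n = 5) for NPD, a log2 difference of -0.38 (standard error 0.14, limma, adjusted P = 0.860, 0.694 to 1.00 over the alternatives). Prdm14, a transcription factor gene of pluripotency and germ cell specification, had 69.2 in LPD line 20, 217 to 299 in the other LPD lines and 260 to 401 in NPD, a log2 difference of -0.73 (standard error 0.33, limma, adjusted P = 0.987). Both were lower at an unadjusted P under 0.05, where 2.18% of all genes tested were. The unadjusted P of Prdm14 was 0.05 or above in 6 of 22 alternatives (4 of them without LPD line 40 or NPD line 15, 21 or 36). Of the 9 markers, 0 were under an adjusted P of 0.1. Nanos3 was the 1 higher marker (0.22, standard error 0.38), but it was -0.02 without NPD line 15, and without LPD line 4 and NPD line 15 all 9 were lower, with a median of -0.24 and Kit alone under an unadjusted P of 0.05. Without LPD line 20, Prdm14 was at -0.37. Alpl, alkaline phosphatase, was the most abundant, with a mean of 2997 over the 10 ESC lines, against 1785 for Kit and 14.3 for Nanos3. Whether any germ cells were present in the lines was not tested. LPD line 20 was lowest for 6 of the 9 markers. NPD line 15, in which 5 of the 10 germline genes were lowest, was highest for 5 of these 9 markers, among them Prdm1 (223, against 20.5 to 121 elsewhere) and Dppa3 (379, against 50.6 to 154).

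Markers of the two-cell-like state had a median log2 difference of 0.05, with 5 of 8 higher and 0 under an unadjusted P of 0.05. Leaving out LPD line 4 and NPD line 15 gave 0 of 8 higher and a median of -0.45. Their summed value was lowest in NPD line 15 (268) and LPD line 6 (468) and highest in NPD line 36 (2078). The most abundant was Zscan4f, and Zscan4d at 0.33 (standard error 0.57) and Tcstv3 at -0.37 (standard error 0.68) had the smallest P in each direction, and both turned when 1 line was left out, to -0.13 without NPD line 15 and to 0.12 without LPD line 6. For the 10 ESC markers the median was 0.00, or -0.01 with 5 higher and 5 lower without LPD line 4 and NPD line 15, with Zfp42 at 0.11 (standard error 0.09, 0.06 without NPD line 36), Sox2 at -0.16 (standard error 0.10, -0.10 without NPD line 15) and Dppa5a as the most abundant. Primitive endoderm markers were higher in 7 of 7 with a median of 0.49 and fibroblast markers lower in 5 of 8 with a median of -0.64, and 0 of either list were under an unadjusted P of 0.05. When the same 2 lines were left out, 4 of 7 and 3 of 7 were higher, with medians of 0.04 and -0.09. Foxa2 had 1.53 (standard error 0.95), or 0.46 without NPD line 15, and Twist1 0.60 (standard error 0.43), or 0.25 without LPD line 20. Col1a1 had -1.09 (standard error 0.77), or -0.55 without NPD line 15 and -1.73 without LPD line 6. For the Y-linked genes the median was 0.58, with 4 of 4 higher and 0 under an unadjusted P of 0.05, all 4 lowest in NPD line 15. Its smallest P was that of Ddx3y at 0.97 (standard error 1.23), which was -0.45 without NPD line 15. With LPD line 4 left out as well, 2 of 4 were higher, with a median of 0.03. Eif2s3y was its most abundant gene.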
